A study of Mus musculus with 4 samples.

Results

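Receptors for the classical neurotransmitters were examined in the neocortex of mouse embryos of the C57BL/6 background at embryonic day 16, on arrays that set synaptically silent null mutants against a pool of normal embryos. Genes were taken by their symbols, namely subunits of glutamate, GABA, glycine and nicotinic receptors, and receptors for acetylcholine, serotonin, dopamine, noradrenaline, histamine and ATP. Of 6856 probes on the array, 70 probes for 68 genes had such a symbol, and 43 probes for 42 genes had a value on 3 or more of the 4 arrays. These 43 probes, 35 for ionotropic and 8 for metabotropic receptors, make up the set described here. The series title names the regulation of genes by synaptic activity as the subject of the study. One of the 70, Grid2ip, has a receptor symbol within its name but encodes a scaffold protein, and it had no value.

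Each two-colour array held total RNA of a separate null sample beside RNA pooled from 4 normal replicates of the same age and region. The null RNA carried Cy3 on replicate 1 and Cy5 on replicates 2, 3 and 4. For replicate 1 the title and characteristics of the null sample state day 16, but the source name states day 14. The labels do not say how many embryos went into a null sample, and the pool counts as 1 control sample, so that the tests leave out the spread between normal embryos.

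Each value is the log of a ratio between the channels, taken here as log2. The base is not stated in the sources, and every fold printed rests on that reading. Which channel was the numerator is not stated in the sources, so the sign does not tell whether null or normal tissue had more of an RNA, and signs are printed as deposited. Replicates 2, 3 and 4 share a dye orientation and hence a direction, and these were tested with limma against a ratio of 0. Because null RNA was in Cy5 on all of these arrays, an effect of the dye cannot be told apart from one of genotype. Log ratios carry no level, so the labelled tissue could not be checked against its defining markers. In tissue RNA, fewer cells of a type and less RNA per cell cannot be told apart.

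Ionotropic receptors are ion channels that open when a transmitter binds, and most are assembled from several subunits drawn from a gene family. Metabotropic receptors are single membrane proteins or dimers that act through G proteins and change the excitability of a cell more slowly. In the developing cortex, kainate, NMDA, GABA-A, glycine and nicotinic receptors are present before most synapses form. GABA and glycine are often depolarising at that stage, and spontaneous transmitter release acts on migrating neurons as well as on young synapses.

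Transcription that follows synaptic activity is often carried by CREB, a factor that binds the cAMP response element, which lies near the start of many of its target genes. The 300 bases from 250 before to 50 after the annotated start were therefore searched in RefSeq promoters of build GRCm38.p6, where 33 of the 42 genes had a window. The cAMP response element was searched as TGACGTCA and its half-site as TGACG, which the full element contains, each on both strands. Promoters are shown for Drd5 and Grik5, which had the smallest p of each sign, and for P2rx4 and Glrb, whose windows hold the half-site. Capitals mark the half-site, and each line runs 5′ to 3′ on the gene's own strand.
Drd5: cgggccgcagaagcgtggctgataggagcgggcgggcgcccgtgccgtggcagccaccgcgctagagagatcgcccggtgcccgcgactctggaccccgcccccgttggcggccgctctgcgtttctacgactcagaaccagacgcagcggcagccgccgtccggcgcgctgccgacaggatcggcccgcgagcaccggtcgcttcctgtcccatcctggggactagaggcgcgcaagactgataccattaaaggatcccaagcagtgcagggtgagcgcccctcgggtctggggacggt
Grik5: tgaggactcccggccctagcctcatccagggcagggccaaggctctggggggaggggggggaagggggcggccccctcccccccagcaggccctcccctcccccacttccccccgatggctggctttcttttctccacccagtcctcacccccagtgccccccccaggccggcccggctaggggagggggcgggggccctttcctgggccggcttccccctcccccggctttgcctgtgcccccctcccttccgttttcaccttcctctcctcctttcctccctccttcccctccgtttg
P2rx4: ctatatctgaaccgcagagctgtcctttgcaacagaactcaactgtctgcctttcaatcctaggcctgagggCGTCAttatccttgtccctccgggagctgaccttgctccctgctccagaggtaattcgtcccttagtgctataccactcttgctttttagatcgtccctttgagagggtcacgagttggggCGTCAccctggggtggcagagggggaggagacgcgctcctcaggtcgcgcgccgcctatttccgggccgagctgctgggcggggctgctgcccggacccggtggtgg
Glrb: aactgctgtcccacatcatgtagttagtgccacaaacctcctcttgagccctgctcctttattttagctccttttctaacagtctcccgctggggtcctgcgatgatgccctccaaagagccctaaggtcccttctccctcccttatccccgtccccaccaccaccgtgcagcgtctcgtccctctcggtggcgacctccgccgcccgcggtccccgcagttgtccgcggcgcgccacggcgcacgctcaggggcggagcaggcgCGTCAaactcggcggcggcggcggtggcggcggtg
Their positions are chr5:38319259-38319558 on the plus strand for Drd5, chr7:25072320-25072619 on the minus strand for Grik5, chr5:122707294-122707593 on the plus strand for P2rx4 and chr3:80913611-80913910 on the minus strand for Glrb.

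The half-site was found in the windows of 7 of 33 receptor genes, namely Chrna5, Chrnb2, Gabrb2, Gabrr1, Glrb, Grik2 and P2rx4. Counted by window, that was 7 of 43, or 16.3%, against 20.8% of all 32851 windows. None of the 4 genes with an unadjusted p under 0.05 (Drd5, Grin2c, Grik5 and Chrna7) had it. P2rx4 held it at 2 places before the start, and Glrb at 1 place after the start. The full cAMP response element was in 0 receptor windows and in 1.79% of all windows. The median GC content was 59% over the receptor windows and 52.7% over all windows. These counts describe letters in a fixed window, and a match is not a binding site.

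The deposited table held values for some receptor families in full and for others in part. All 4 AMPA, all 4 kainate and all 4 NMDA probes had values, as did all 3 glycine receptor probes. Values were present for 10 of 14 GABA-A probes, 7 of 10 nicotinic probes and 3 of 4 P2X probes. Of the 11 serotonin receptor probes, by contrast, 10 had no value on any array, which left only Htr1a, the 5-HT1A receptor. Both P2Y receptors and the only metabotropic glutamate receptor spotted, Grm8, had no value either. Leaving out Grid2ip, 26 of 69 receptor probes (37.7%) were without a value on any array, against 981 of all 6856 probes (14.3%). Among metabotropic receptors this was so for 16 of 24 probes (66.7%), and among ionotropic receptors for 10 of 45 (22.2%). Why these rows are empty is not stated in the sources, so an empty row is not a measured absence.

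**Figure D1:**
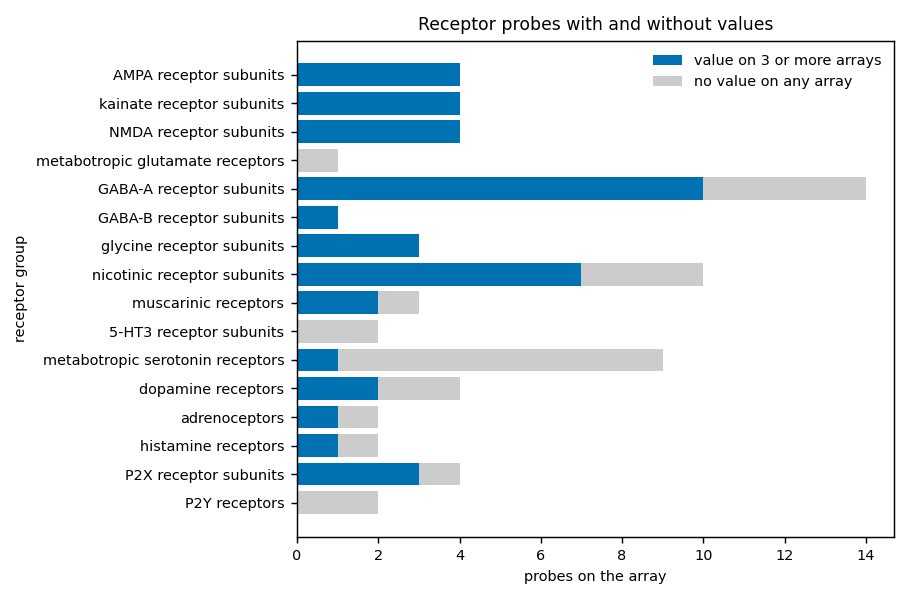
Number of probes on the array for each receptor group (x axis), split into probes with a value on 3 or more of the 4 arrays (blue) and probes with no value on any array (grey). All AMPA, kainate, NMDA and glycine receptor probes had values, whereas 10 of 11 serotonin receptor probes, counting both serotonin groups, had none.

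Over the 43 probes, no receptor passed the adjusted threshold, and the median log ratio was close to 0. Of the 43, 24 had a positive mean on replicates 2 to 4 (55.8%, against 47.4% of all 5720 probes tested) and 19 a negative one. The median was 0.03, against -0.02 over all probes. With limma and Benjamini-Hochberg adjustment over all probes, 0 receptors had an adjusted p under 0.05, which was also the count over all probes (0%). At an unadjusted p under 0.05, limma listed 4 of 43 receptor probes, or 9.30%, against 9.67% of all probes. Of these, 3 were positive (6.98%, against 5.61% of all probes) and 1 was negative (2.33%, against 4.06%). Replicates 2 to 4 shared a sign for 15 receptor probes (34.9%), 8 positive and 7 negative, against 33.5% of all probes. The share of receptors in each of these counts was near that of the array as a whole.

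The precision was limited by the number of arrays. The 95% interval from limma reached 0.46 to either side of the mean for the median receptor probe, or 1.37-fold, and 0.41, or 1.33-fold, for the median of all probes. The median SD between replicates 2 to 4 was 0.37 for receptor probes and 0.27 for all probes. An SD beyond 1 was seen for 4 receptor probes, or 9.30%, against 2.97% of all probes. They were Drd1, Glra1, Htr1a and a probe of Gabrg3.

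**Figure D2:**
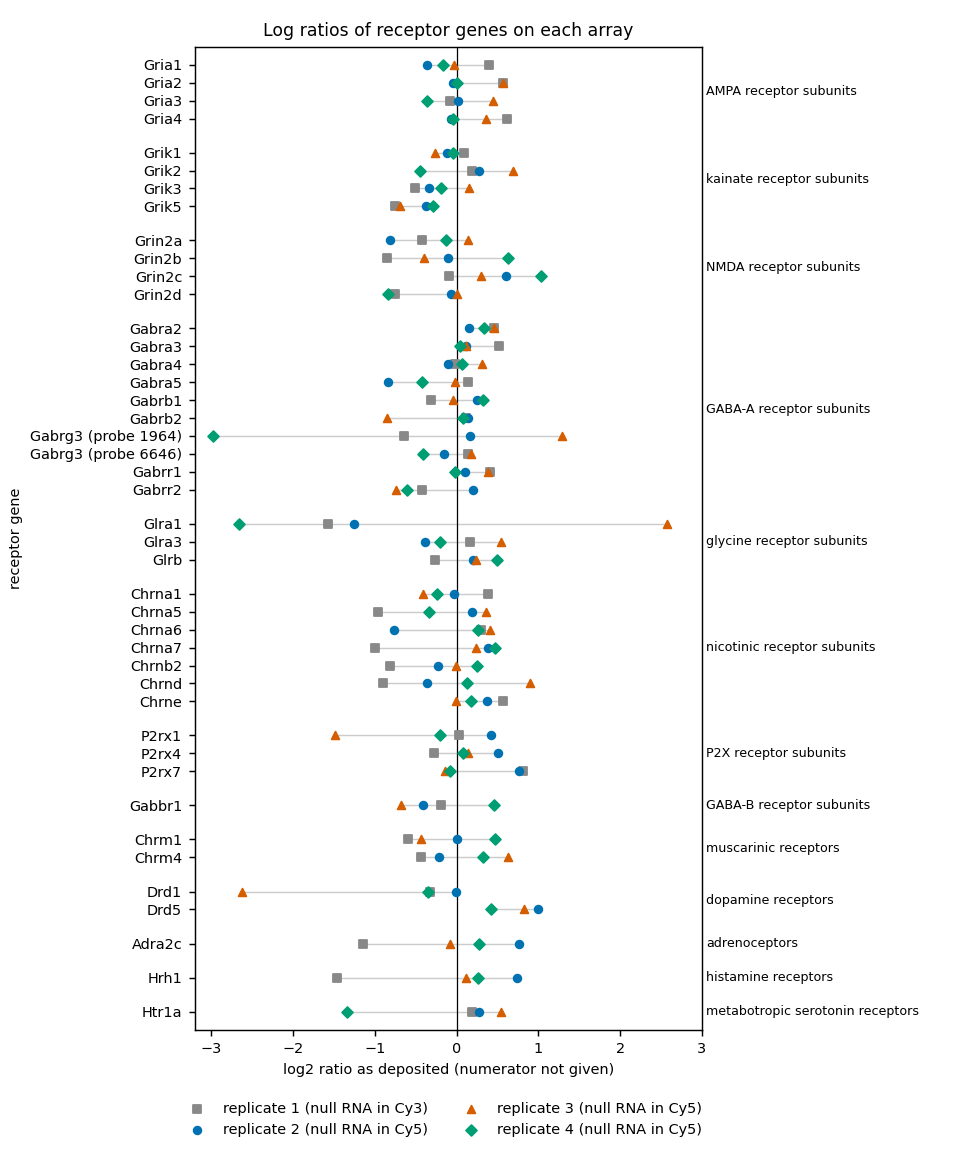
Log2 ratio as deposited (x axis) of each receptor probe (y axis, grouped by receptor family) on each of the 4 arrays, with a marker for each replicate and a grey line over the range of a probe. As deposited, Drd5 and Grik5 keep a single sign on every array on which they were measured, as do Drd1, Gabra2, Gabra3 and Grin2d. With replicate 1 turned, only Drd5 of these does, and it has no value on replicate 1. Glra1 lies at 2.57 on replicate 3 and between -2.66 and -1.26 on the others.

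Among the glutamate receptors, the channels of fast excitation, 12 probes were measured, and 6 means were positive and 6 negative. Kainate receptor subunits, of channels that modulate release and excitability, had a median of -0.14, with 3 of 4 means negative. That median was -0.15 on 4 arrays with replicate 1 as deposited, -0.05 with it turned, and 0.071 with a dye term. Grik5, the high-affinity subunit that forms channels only together with other kainate subunits, had log ratios of -0.38, -0.70 and -0.29 on replicates 2, 3 and 4. Replicate 1 had -0.76 as deposited, so that all 4 arrays were negative. Its mean on replicates 2 to 4 was -0.45 ± 0.21 (SD, n = 3), or 1.37-fold in size, with a 95% interval of -0.84 to -0.07. The p from limma was 0.0277 before and 0.473 after adjustment. Grik1, Grik2 and Grik3, which form the channel core, had means of -0.14, 0.17 and -0.13, and their intervals included 0.

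NMDA receptor subunits, of the coincidence-detecting and calcium-permeable channel, did not share a sign. Grin2c, the GluN2C subunit best known from the cerebellum, had 0.61, 0.30 and 1.03 on replicates 2, 3 and 4, and -0.10 on replicate 1. The 3 arrays of the same dye orientation were all positive, while replicate 1 was near 0. Its mean was 0.64 ± 0.37 (SD, n = 3), or 1.56-fold in size, with an interval of 0.19 to 1.10, a limma p of 0.0140 and an adjusted p of 0.473. Grin2b, the main GluN2 subunit of the embryonic cortex, had a mean of 0.04, with -0.11 and -0.40 on replicates 2 and 3 and 0.63 on replicate 4. Grin2a, whose use increases after birth, had -0.27, and Grin2d, another early subunit, had -0.30, with intervals that included 0. On replicate 1 all 4 NMDA probes were negative, from -0.85 to -0.10.

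AMPA receptor subunits, which carry most fast excitatory current, had means from -0.19 to 0.18. Gria1 had -0.37, -0.03 and -0.17 on replicates 2, 3 and 4 and 0.39 on replicate 1. It was the only AMPA subunit with a single sign on replicates 2 to 4, at a mean of -0.19 ± 0.17 (SD, n = 3), a limma p of 0.253 and an adjusted p of 0.698. Gria2, which sets the calcium permeability of the channel, had a mean of 0.18, Gria3 had 0.03 and Gria4 had 0.08.

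Receptors for the inhibitory transmitters were as mixed. Of 10 GABA-A probes, 5 had a positive and 5 a negative mean, the median was -0.02, and none had an unadjusted p under 0.05 in limma. Gabra5, an alpha subunit of extrasynaptic receptors that is prominent in the embryonic brain, had -0.84, -0.02 and -0.42 on replicates 2, 3 and 4, and 0.14 on replicate 1. Its mean was -0.43 ± 0.41 (SD, n = 3), with a limma p of 0.0740 and an adjusted p of 0.549. Gabra2, the alpha subunit found at the axon initial segment among other places, had 0.15, 0.46 and 0.34 on replicates 2, 3 and 4, and 0.46 on replicate 1. It was thus positive on all 4 arrays as deposited, with a mean on replicates 2 to 4 of 0.31 ± 0.16 (SD, n = 3), a limma p of 0.0785 and an adjusted p of 0.549. The alpha subunits Gabra3 and Gabra4 had 0.09 each, and the beta subunits Gabrb1 and Gabrb2 had 0.17 and -0.21. The rho subunits Gabrr1 and Gabrr2, which are best known from the retina, had 0.16 and -0.38.

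Gabrg3, a gamma subunit of the GABA-A receptor, was the only receptor gene with 2 measured probes, and these differed in spread. Probe 1964 had 0.16, 1.29 and -2.98 on replicates 2, 3 and 4 and -0.65 on replicate 1, with a mean of -0.51 ± 2.21 (SD, n = 3). Probe 6646 had -0.15, 0.18 and -0.41 on replicates 2, 3 and 4 and 0.14 on replicate 1, with a mean of -0.13 ± 0.29. The means were negative at both probes and their intervals overlapped, but without replicate 4 both were positive, at 0.72 and 0.01. Gabbr1, a subunit of the metabotropic GABA-B receptor, had -0.41, -0.68 and 0.46 on replicates 2, 3 and 4.

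Of the glycine receptor probes, Glrb, the beta subunit that anchors the receptor to gephyrin, had 0.20, 0.24 and 0.50 on replicates 2, 3 and 4 and -0.26 on replicate 1. The Cy5 arrays were all positive, with a mean of 0.31 ± 0.16 (SD, n = 3), a limma p of 0.0804 and an adjusted p of 0.550. Glra3, an alpha subunit, had a mean of -0.02. Glra1, the alpha subunit of the adult spinal receptor, had -1.26, 2.57 and -2.66 on replicates 2, 3 and 4, and -1.57 on replicate 1. It was the only receptor probe beyond 1 in size on all 4 arrays, which held for 5 of the 5687 probes measured on all of them (0.0879%). Its sign changed between arrays of the same dye orientation, and its mean of -0.45 ± 2.71 (SD, n = 3) had an interval of -2.76 to 1.86. Glra1 was picked out after its values were seen.

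For acetylcholine, 7 of 9 probes had a positive mean on replicates 2 to 4 (77.8%, against 47.4% of all probes). On 4 arrays this was so for 6 with replicate 1 turned and for 4 with it as deposited. The median of the nicotinic subunits was 0.07 on replicates 2 to 4, -0.057 on 4 arrays as deposited and -0.077 without replicate 3. Chrna7, the subunit that forms calcium-permeable nicotinic receptors on its own, had 0.39, 0.24 and 0.47 on replicates 2, 3 and 4, and -1.002 on replicate 1. The arrays with null RNA in Cy5 were all positive and close together, and the array with null RNA in Cy3 had the opposite sign. The mean was 0.37 ± 0.12 (SD, n = 3), or 1.29-fold in size, with an interval of 0.01 to 0.72, a limma p of 0.0445 and an adjusted p of 0.504. Chrnb2, part of the other main brain nicotinic receptor, had a mean of 0.0042, with an interval of -0.39 to 0.40. The accessory subunit Chrna5 had 0.07, Chrna6, a subunit of nicotinic receptors on dopamine neurons, had -0.03, and the muscle subunits Chrna1, Chrnd and Chrne had -0.23, 0.22 and 0.18. The muscarinic receptors Chrm1 and Chrm4, which couple to different G proteins, had 0.01 and 0.25. A second probe of Chrm1 had no value.

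The dopamine receptors held the receptor means furthest from 0 in both directions on replicates 2 to 4. Drd5, the D5 receptor that stimulates adenylyl cyclase, had 1.00, 0.83 and 0.42 on replicates 2, 3 and 4 and no value on replicate 1. All 3 arrays were well above 0, with a mean of 0.75 ± 0.30 (SD, n = 3), or 1.68-fold in size, and an interval of 0.33 to 1.17. Its limma p of 0.00515 was the smallest of the receptors, and its adjusted p was 0.454. Drd1, the D1 receptor of the same class, had -0.01, -2.62 and -0.36 on replicates 2, 3 and 4, and -0.33 on replicate 1. A single array set its mean of -0.99 ± 1.42 (SD, n = 3), with a limma p of 0.0974, an adjusted p of 0.567 and an interval of -2.24 to 0.25. Without replicate 3 the mean of Drd1 was -0.18. Drd1 is abundant in the striatum, which lies beneath the neocortex. The other 6 striatal genes measured lay between -0.15 and 0.51 on replicate 3, and the part of striatal tissue in the value of Drd1 was not tested.

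Of the other amine receptors, Hrh1, the histamine H1 receptor, had 0.74, 0.12 and 0.26 on replicates 2, 3 and 4, and -1.46 on replicate 1. The Cy5 arrays were all positive, with a mean of 0.37 ± 0.32 (SD, n = 3), a limma p of 0.0796 and an adjusted p of 0.549. Adra2c, an alpha-2 adrenoceptor, had a mean of 0.32 with replicate 3 at -0.08, and -1.14 on replicate 1. Htr1a had 0.27, 0.54 and -1.34 on replicates 2, 3 and 4 and a mean of -0.18.

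Among P2X receptors, the channels opened by ATP, P2rx4 had 0.51, 0.13 and 0.07 on replicates 2, 3 and 4 and -0.28 on replicate 1. Its mean was 0.24 ± 0.24 (SD, n = 3), with a limma p of 0.186 and an adjusted p of 0.659. P2rx1 had a mean of -0.42, drawn by -1.49 on replicate 3, and P2rx7, known from immune cells and glia, had 0.18. The 30 receptor probes that did not meet the rule for naming had means of -0.45 to 0.32 and unadjusted p of 0.136 or more in limma.

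**Figure D3:**
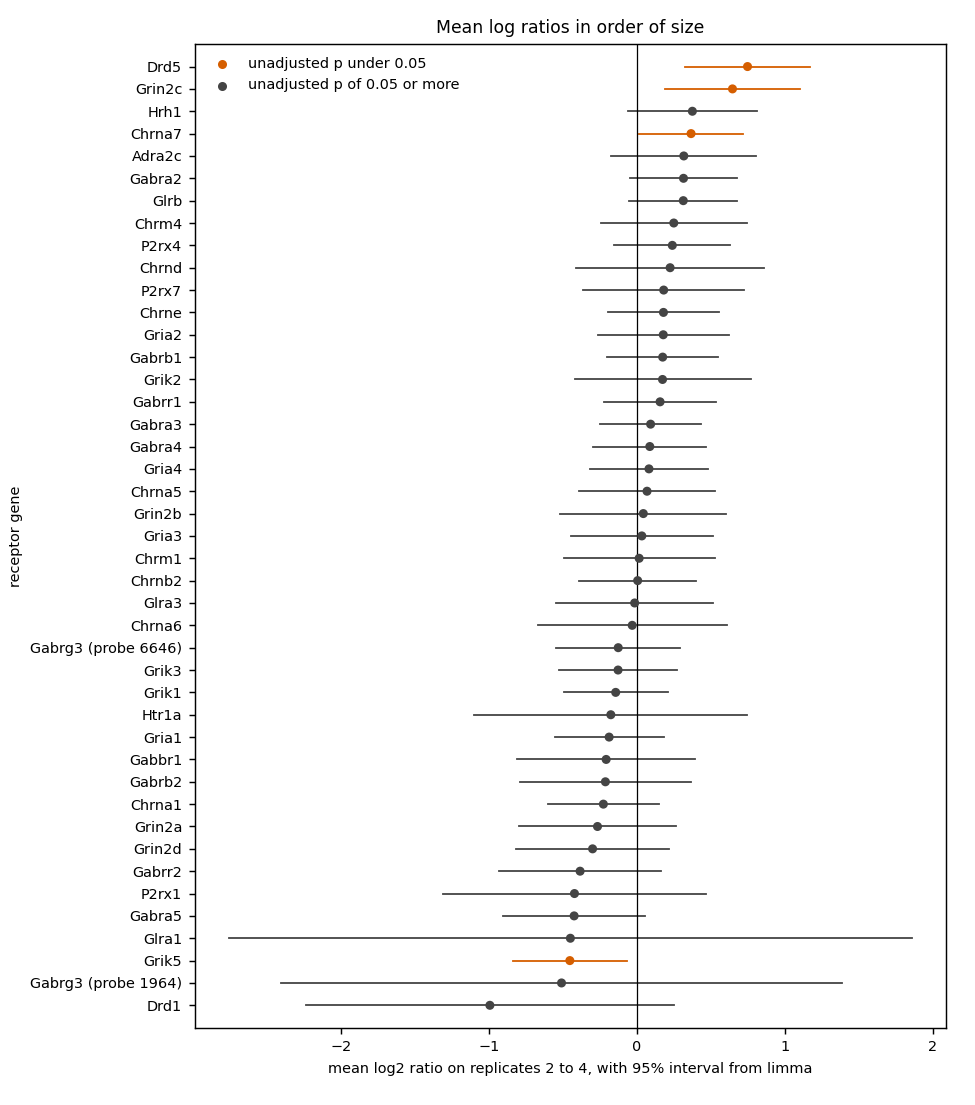
Mean log2 ratio on replicates 2 to 4 (x axis) with its 95% interval from limma for each receptor probe (y axis), in order of the mean. The intervals of Drd5, Grin2c, Chrna7 and Grik5 (orange) leave out 0, and those of the other 39 probes (dark grey) include it.

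Replicate 1 did not settle the sign of these receptors. As deposited, its value had the sign of the mean of replicates 2 to 4 for 17 of 42 receptor probes, and after turning its sign for 25. The same count was not made over all probes, so it shows nothing particular to receptors and does not decide between the signs. For a ratio of Cy5 over Cy3, the sign of replicate 1 must be turned. Of 42 receptors, 5 then had an unadjusted p under 0.05 in limma (11.9%, against 8.44% of all 5687 probes). All 5 were positive (5.29% of all probes were listed as positive). They were Chrna7 with a mean of 0.52, Grin2c with 0.51, Hrh1 with 0.65, Glrb with 0.30 and Adra2c with 0.52. Their adjusted p lay between 0.522 and 0.579. The first 4 of these had a single sign on all 4 arrays, as did 9 receptors in all (21.4%, against 18.1% of probes).

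If the ratio was null over normal on every array, replicate 1 stays as deposited, and 3 of 42 receptors had an unadjusted p under 0.05 in limma (7.14%, against 7.12% of probes). They were Grik5 at -0.53, Gabra2 at 0.35 and Grin2c at 0.46, each with an adjusted p of 0.663. Grin2c was the only receptor listed under both readings and on replicates 2 to 4. With a dye term in the fit of the turned arrays, Grin2c was not listed, at 0.37 with an unadjusted p of 0.0922 and an adjusted p of 0.741 in limma. The 5 receptors listed there were Adra2c, Chrna5, Chrna7, Chrnb2 and Hrh1, all positive (11.9%, against 6.73% of all probes listed with either sign). The share of all probes listed there as positive was not counted. In that fit replicate 1, the only array with null RNA in Cy3, weighs as much as replicates 2 to 4 together. On replicate 1 as deposited, these 5 had values from -1.46 to -0.82. On replicates 2 to 4, Chrnb2 had a mean of 0.0042 and Chrna5 of 0.07. Without a dye term and with replicate 1 as deposited, Chrna7 had a mean of 0.02 and Hrh1 of -0.08. With replicate 1 turned, Grik5 had -0.15. No receptor passed the adjusted threshold under either reading or with a dye term. Over all probes and without that term, 0 passed after turning replicate 1 (0%) and 2 when it stayed as deposited (0.0352%). With that term, 1 of 5687 probes passed. The fits share replicates 2 to 4 and the pool and are not independent of each other.

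**Figure D4:**
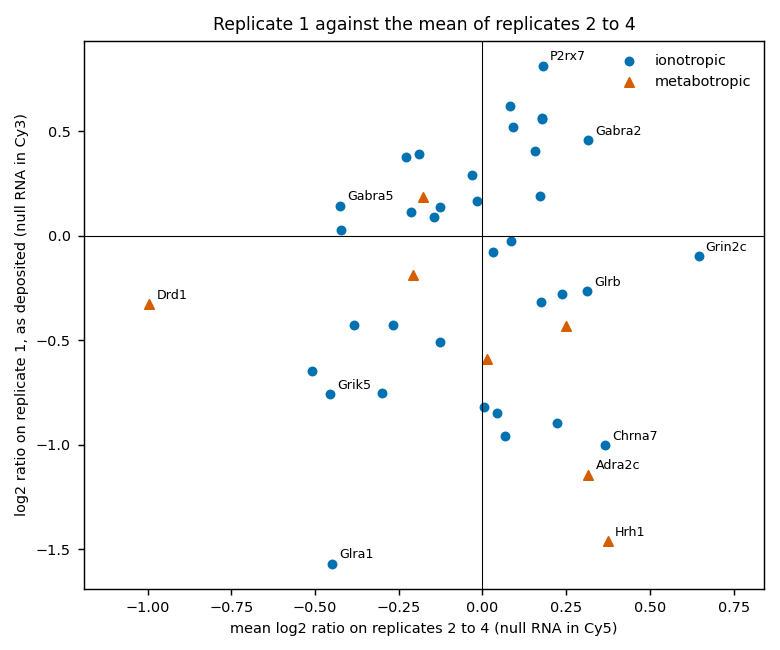
Log2 ratio on replicate 1 as deposited (y axis) against the mean of replicates 2 to 4 (x axis) for the 42 receptor probes measured on all 4 arrays, with ionotropic receptors as blue circles and metabotropic ones as orange triangles. Chrna7, Adra2c and Hrh1 lie at the lower right, positive on the mean and at or below -1.002 on replicate 1, and Grik5 is negative on both axes.

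Leaving out an array changed which receptors were listed. At an unadjusted p under 0.05 in limma, Drd5 was listed without each of replicates 2, 3 and 4 in turn, whereas Grin2c and Chrna7 were listed only when replicate 3 was the array left out. Grik5 was listed only when replicate 4 was left out. Without replicate 3 the count was 7 instead of 4 (9.50% of all probes), without replicate 2 it was 3 (4.09%), and without replicate 4 it was 3 (10.9%).

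Genes around the receptors were taken as a pair of lists. Of 76 symbols for receptor scaffolds and auxiliary subunits, which hold receptors at the synapse, 31 genes were measured with 33 probes, of which 22 had a negative mean and 11 a positive one (33.3% positive, against 47.4% of all probes). The median was -0.18, against -0.02 over all probes, with array medians of -0.20, -0.15, -0.18 and 0.01 on replicates 1 to 4. At an unadjusted p under 0.05 in limma, 3 probes were listed (9.09%, against 9.67% of all probes). All 3 were negative, and 4.06% of all probes were listed as negative. Grasp, a scaffold of group I metabotropic glutamate receptors, had -1.19, -2.21 and -0.41 on replicates 2, 3 and 4 and -0.11 on replicate 1. Hap1, which takes part in the transport of GABA-A receptors, had a mean of -0.52 ± 0.38 (SD, n = 3), and the ubiquitin ligase Neurl1a had -0.51 ± 0.43. Their adjusted p in limma lay between 0.454 and 0.504. The listed count was 1 without replicate 2 (against 4.09% of all probes), 1 without replicate 3 (9.50%) and 8 without replicate 4 (10.9%). On 4 arrays it was 5 with replicate 1 as deposited (7.12%), 2 with it turned (8.44%) and 1 with a dye term (6.73%).

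Of 57 symbols for the synthesis, transport and breakdown of transmitters, 26 genes were measured with 29 probes, 13 positive (44.8%, against 47.4% of all probes) and 16 negative, with a median of -0.04. In limma, 4 probes had an unadjusted p under 0.05 (13.8%, against 9.67% of all probes), and their adjusted p lay between 0.450 and 0.490. Gad2, an enzyme that makes GABA, had 0.92, 0.74 and 0.49 on replicates 2, 3 and 4 and -0.04 on replicate 1. Its partner enzyme Gad1 had -0.36, -0.11 and -0.27 on the same arrays and a mean of -0.25 ± 0.13 (SD, n = 3), with an unadjusted p of 0.142 and an adjusted p of 0.622 in limma. The other listed genes were Nt5e, which makes adenosine outside the cell, at 0.50 ± 0.21, the dopa decarboxylase Ddc at 0.37 ± 0.06, and Slc6a2, the noradrenaline transporter, at -0.44 ± 0.10. A second probe of Slc6a2 changed sign between arrays, with -2.10, 0.15 and 0.44 on replicates 2, 3 and 4. The listed count was 2 without replicate 2 (against 4.09% of all probes), 4 without replicate 3 (9.50%) and 2 without replicate 4 (10.9%).

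Markers of cortical projection neurons, interneurons and glia, which belong to the neocortex, were measured on the same arrays. So were markers of other cells that the dissection could hold. None of these markers passed the adjusted threshold in limma, where the smallest adjusted p was 0.450. At an unadjusted p under 0.05, limma listed 5 of 10 probes for vessels, 2 of 4 for blood, 3 of 6 for meninges and mesenchyme and 4 of 8 for microglia and leukocytes, each 50%, against 9.67% of all probes. It listed 3 of 7 for cortical projection neurons, 3 of 7 for the striatum, 2 of 11 for interneurons, 1 of 6 for thalamus and hypothalamus and 1 of 6 for glia. By sign of the mean, 7 of 10 for vessels, 4 of 4 for blood and 6 of 6 for meninges and mesenchyme were negative, against 52.6% of all probes. For microglia and leukocytes 5 of 8 were positive, and for cortical projection neurons 6 of 7 and for interneurons 7 of 11 were negative. Of the striatal, thalamic and hypothalamic, and glial markers, 4 of 7, 5 of 6 and 4 of 6 were negative. The striatal list includes Drd1, a receptor of the set described here, among its negative means. The medians of these lists lay between -0.37 and 0.34. Several of these marker genes were known from earlier results of these data, and their part in the receptor values was not tested.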

How the data were processed

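RNA of 4 null samples was set against 1 pool of normal RNA on 4 two-colour arrays. The deposited values, a single log ratio per probe and array, were taken as log2, since they reach sizes too large for log10 ratios, which leaves a natural log possible. Scanner, background correction, normalization, numerator, log base and the filter behind empty rows are unstated in the sources, and 0 further value columns were left unused. No count of depth applies, and the number of arrays limits the precision. The mutated gene is not reported here.

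Probes were named from the platform annotation, and all 70 receptor probes had an Entrez ID in the RefSeq table of GRCm38.p6, which changed 0 symbols. Mean log ratios on replicates 2, 3 and 4 were tested against 0 with limma 3.58.1 (lmFit, eBayes; R 4.3.3) over the 5720 probes with a value on each, two-sided, with Benjamini-Hochberg adjustment over all of them and a threshold of 0.05. The labels call the null samples biological replicates. The steps were tested on simulated data with changes larger than any receptor mean. Whether changes of the sizes seen here would be found was not tested. The receptors, lists, markers and tests were chosen with earlier results of these data known.

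Values on every array were given for receptors with an unadjusted p under 0.05, the smallest p with a single sign in each group of several probes, an unadjusted p under 0.05 and a single sign on all 4 arrays in either 4-array fit, a mean beyond 0.5, or several measured probes. This named 12 genes. From the related lists, genes with an unadjusted p under 0.05 were named. Gad1 and the second probe of Slc6a2 did not meet that rule. Their values, and those given for other receptors, were added after they were seen. Alternatives were both signs of replicate 1, a dye term, centring, a common scale, a missing value, averaging by gene, a robust prior, array weights, leaving out probes beyond 4, an adjusted p of 0.1 and leaving out each array.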

Additional observations from a re-analysis of the deposited data

Results flagged for a closer look

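Over the 4 arrays, a single array stood apart from the others for 5 of 42 receptor probes, by a gap to its nearest neighbour of more than Dixon's critical share of the whole range. With both signs of replicate 1 this was checked 84 times and found 6 times, 5 as deposited and 1 turned. Chance flags about 1 in 20 groups of normal values with a common mean and spread. An array of the other dye orientation may not share these. The same check was not made over all probes, so the count shows nothing particular to receptors. Gabra3 had 0.52 on replicate 1 as deposited, against 0.04 to 0.12 on the others, and -0.52 when turned, so it stood apart either way. With replicate 1 as deposited, Chrna7 had -1.002 on replicate 1, against 0.24 to 0.47 on the others. Gabrb2 had -0.86 on replicate 3, against 0.08 to 0.13. Chrna6 had -0.77 on replicate 2, against 0.26 to 0.41. Drd1 had -2.62 on replicate 3, against -0.36 to -0.01.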

How the results depend on the processing

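Under every alternative run, 0 receptors passed an adjusted p of 0.05 in limma, and 0 passed 0.1. Over all probes, 0 to 3 passed 0.05, the most with array weights, and 1 passed 0.1 on replicates 2 to 4. At an unadjusted p under 0.05 in limma, 4 receptors were listed on replicates 2 to 4, where 9.67% of all probes were listed. When an array was left out the number was 3 to 7, against 4.09% to 10.9% of all probes. With array weights it was 9, where 18.7% of all probes were listed. Under the other alternatives it was 3 to 5, where 6.73% to 11% of all probes were listed. The median of the receptors was 0.03 on replicates 2 to 4 and -0.02 to 0.12 when an array was left out. On 4 arrays it was -0.059 with replicate 1 as deposited, -0.0073 with it turned and 0.0375 with a dye term. With array weights it was -0.0106. Among the receptors named by the rule, signs reversed for Hrh1 with replicate 1 as deposited, at -0.085. With a dye term they reversed for Gabra2 at -0.072, Grik5 at 0.15 and Gabrg3 probe 1964 at 0.069. Other receptors were not followed in this way, and several of their means also changed sign. With replicate 1 as deposited, Adra2c went from 0.32 to -0.05 and Grin2b from 0.04 to -0.18. Leaving out an array gave -1.41 to 0.72 for Gabrg3 probe 1964 and -0.28 to 0.013 for probe 6646, each positive without replicate 4. The cause was not tested. Array weights raised the listed counts of both related lists to 8. No paired analysis was possible because all null samples share a single pool. Signal over background is unknown, so dim probes could not be set apart.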
